A study of Danio rerio with 2 samples.

Results

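The cells described here are the *hand2*-positive neural crest cells of the first pharyngeal arch, the population that lies in the ventral, lower jaw part of the mandibular arch. They were taken from 2 single-cell RNA-seq libraries of cranial neural crest cells (NCCs) of 36 hpf zebrafish, 1 from embryos treated with YM and 1 from embryos treated with DMSO. YM (YM-254890) blocks the Gq/11 family of Gα subunits and was applied at 100 µM from 16 to 36 hpf, and the vehicle DMSO was applied over the same hours. All embryos carried Tg(*sox10*:mRFP) and Tg(*fli1a*:EGFP). The *sox10* reporter labels neural crest and the *fli1a* reporter labels arch crest and endothelium. Each treatment was given to 70 embryos, of which 10 were kept apart, and cells with both reporters were sorted from the dissociated heads of the others, so that each library is 1 pool of embryos. The sort returned 86000 YM and 72000 DMSO cells, of which 8000 per treatment went into droplet 3′ sequencing. The labels give 10% DMSO by volume as the vehicle, whereas the methods state a lower limit. With 1 library per condition, no difference between YM and DMSO has a replicate check and no test was made.

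A barcode was kept as a cell with at least 1800 unique molecular identifiers (UMIs), at most 3500 genes in the YM or 3000 genes in the DMSO library, and under 5% of UMIs from mitochondrial genes. This kept 4376 YM and 3555 DMSO cells. A kept cell was a ventral arch 1 cell when it held at least 2 UMIs of *hand2*, no UMI of *hoxa2b* or *hoxb2a*, and at most 1 UMI of *hoxb3a*, *hoxd4a* and *hoxb5b* together. This gave 137 YM and 198 DMSO cells, 335 of 7931 in all. The members were thus chosen on *hand2* and the Hox genes, and their levels of these genes are a description. Just outside the *hand2* minimum lay 46 YM and 62 DMSO cells with 1 UMI of *hand2*, and just inside it lay 22 YM and 53 DMSO cells with 2 UMIs. The median member held 5 UMIs of *hand2* in the YM and 4 in the DMSO library, and the highest held 17 in YM and 18 in DMSO. Just outside the Hox limit lay 39 YM and 52 DMSO cells with *hand2* and 1 UMI of *hoxa2b* and *hoxb2a*. Cells with *hand2* and at least 1 such UMI, under the same limit on the other Hox genes and taken here as ventral arch 2 cells, held a median of only 3 of these UMIs in each library, so that some second arch cells can be counted at 0 and lie among the members.

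Pharyngeal arches are segments of the embryonic throat that neural crest cells fill on their way to forming the facial skeleton. Endothelin 1 from the arch epithelium and mesoderm acts through its receptor Ednra on the crest cells and sets up the lower jaw program, with *hand2* ventrally and *dlx3b*, *dlx4a* and *dlx4b* in the intermediate domain where the jaw joint forms. Jagged-Notch signaling marks the dorsal domain, BMP signaling the ventral domain, and the Dlx factors form a nested code along this axis. The Hox2 genes are on in the second arch and off in the first.

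UMIs of each gene were summed over the members of a library and scaled to counts per 1000000 of all their UMIs (CPM). Libraries were compared by the log2 of the YM level over the DMSO level, with no pseudocount added. Brackets hold exact 95% intervals, Poisson for a CPM, binomial for a share and conditional binomial for a ratio, and they cover counting error only. The members held 967775 UMIs in the YM and 1208102 UMIs in the DMSO library, with medians of 6765 UMIs and 1636 genes per cell in YM and of 5833 UMIs and 1435 genes in DMSO. Mitochondrial genes took a median of 1.25% of UMIs in YM and 1.34% in DMSO members. Free RNA, judged from haemoglobin transcripts, made up 0.503% of YM and 0.480% of DMSO member UMIs. No member barcode was present in both member sets, and 5 barcodes were kept in both libraries. Doublets were not removed.

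Of the 3 genes that mark this population, *dlx2a* stood at 285 CPM in YM and 290 CPM in DMSO members, and a UMI of it was found in 65.2% of YM and 62.2% of DMSO members after each cell was thinned to 3500 UMIs. The third, *gsc*, a homeobox gene of the ventral and dorsal arch, was low, at 19.6 CPM in YM and 28.1 CPM in DMSO members. It was lower than in ventral arch 2 cells, which had 30.7 CPM in YM and 73.9 CPM in DMSO, so *gsc* did not set the members apart from the second arch. The summed distal-less genes were found in nearly every member. At 3500 UMIs, 94.8% of YM members (128 of 135, 89.6% to 97.9%) and 96.3% of DMSO members (181 of 188, 92.5% to 98.5%) held a UMI of *dlx1a*, *dlx2a*, *dlx3b*, *dlx4a*, *dlx4b*, *dlx5a* or *dlx6a*. Leukocytes, which should lack these genes, held none of *dlx2a*, *dlx3b*, *dlx4a*, *dlx4b*, *dlx5a* or *dlx6a* in 49 YM and 60 DMSO cells at this depth, and *dlx1a* was found in 0 of the YM and 1 of the DMSO cells. Their medians before thinning were 9322 UMIs in YM and 8320 UMIs in DMSO.

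Markers of other cells summed to less in members than over all kept cells, except for pectoral fin, heart and endothelial markers in YM. The 7 pectoral fin markers summed to 131 CPM in YM and 107 CPM in DMSO members, close to the 122 CPM in YM and 115 CPM in DMSO of all kept cells. Nearly all of this was *sall4*, with 125 UMIs in YM and 129 UMIs in DMSO, whereas the limb bud gene *tbx5a* was at 0 in both libraries. The 9 heart markers summed to 11.4 CPM in YM and were all at 0 in DMSO, and the 12 leukocyte markers summed to 10.3 CPM in YM and 26.5 CPM in DMSO members. The 11 epidermal markers summed to 211 CPM in YM members, with 8 of them at 0, and to 683 CPM in DMSO members, with 2 at 0. Over all kept cells they summed to 499 CPM in YM and 789 CPM in DMSO. In 20 YM and 35 DMSO members 3 or more epidermal UMIs were found. Without the 3 members named below, nearly all were of *krt8*, with 164 UMIs in YM and 244 UMIs in DMSO. A single DMSO member held 576 epidermal UMIs, and a single YM member held 58 endothelial UMIs together with 35 epidermal UMIs. Over all kept cells endothelial markers summed to 18.1 CPM in YM and 13.1 CPM in DMSO. The 8 frontonasal markers summed to 78.5 CPM in YM and 48.0 CPM in DMSO members and reached 17 UMIs in 1 YM member and 12 UMIs in 1 DMSO member. Among them *alx4a* had 42 UMIs in YM and 25 UMIs in DMSO, a log2 ratio of 1.07 (0.32 to 1.84), *akap12b* had 33 UMIs in YM and 19 UMIs in DMSO, 17 and 5 of them in 1 member each, and *alx1* had 0 UMIs in YM and 4 UMIs in DMSO, all 4 in 1 member. The part of such cells in the results was not tested beyond leaving out the 3 members described next. The other lists summed to 17.6 CPM in YM and 9.11 CPM in DMSO for erythroid, 63.0 CPM in YM and 3.31 CPM in DMSO for endothelial, 4.13 CPM in YM and 7.45 CPM in DMSO for muscle, 17.6 CPM in YM and 25.7 CPM in DMSO for pigment cell, and 53.7 CPM in YM and 60.4 CPM in DMSO for neural and glial markers. In all, 1 YM and 2 DMSO members held 10 or more UMIs of another cell type's list. Values without these 3 cells were computed after seeing the data.

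Ventral arch 1 cells were a smaller share of the YM library. They made up 3.13% of YM cells (2.63% to 3.69%) and 5.57% of DMSO cells (4.84% to 6.37%). After every kept cell was thinned to 3500 UMIs before the rule was applied, the shares were 3.25% in YM (132 of 4057) and 5.38% in DMSO (173 of 3218), with 319 YM and 337 DMSO cells left out as too shallow. Kept cells with 2 or more UMIs of *hand2* at this depth were 7.67% in YM and 12.1% in DMSO. Ventral arch 2 cells were a smaller share in YM as well, at 4.87% of YM (213 cells, 4.25% to 5.55%) and 6.02% of DMSO cells (214 cells, 5.26% to 6.85%). These 2 intervals overlap, and the difference was not tested. First arch cells with at least 2 UMIs of *dlx2a* and none of *hand2*, here *hand2*-negative arch 1 cells, were 9.30% of YM (407 cells) and 8.80% of DMSO cells (313 cells). Of 50 YM and 61 DMSO leukocytes, 1 in each library held *hand2*, and each of these met the minimum of 2 UMIs. A share counts cells past a *hand2* minimum, so fewer such cells and less *hand2* per cell cannot be told apart in it.

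Within each library the members were then set against ventral arch 2 cells, which pass the same *hand2* minimum, to describe what besides the Hox genes goes with the first arch. Of 1791 genes at 50 CPM or more, 30 were at least 1.5-fold higher in members in both libraries (1.68%) and 10 were at least 1.5-fold lower in both (0.558%). As the classes were cut from these same cells, the contrast is a description. Among the highest were genes of secreted and membrane proteins. *dcn*, which encodes the proteoglycan decorin, stood at 218 CPM in YM members against 50.5 CPM in YM ventral arch 2 cells, and at 168 against 38.3 CPM in DMSO. *ndnf*, a secreted factor, stood at 104 against 22.7 CPM in YM and at 75.3 against 17.8 CPM in DMSO. *vasna*, encoding a vasorin, a membrane protein that binds TGF-β in mammals, stood at 411 against 93.1 CPM in YM and at 412 against 145 CPM in DMSO. The transcription factor genes *msx3*, *tbx2a* and *lmo4b* were also higher in members in both libraries, with log2 ratios of 2.11, 1.52 and 1.75 in YM and of 1.48, 1.43 and 1.26 in DMSO.

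Several distal-less genes had a larger ratio between the arches in YM than in DMSO. *dlx6a* stood at 262 CPM in YM members against 37.5 CPM in YM ventral arch 2 cells, a log2 ratio of 2.81 (2.41 to 3.22). In DMSO it stood at 330 against 95.6 CPM, a log2 ratio of 1.79 (1.51 to 2.07). The same ratio was 1.78 in YM and 1.32 in DMSO for *dlx5a*, 2.19 in YM and 1.11 in DMSO for *dlx4b*, and 1.94 in YM and 0.53 in DMSO for *dlx3b*. *dlx4a* had 0.41 in YM and 0.44 in DMSO. The ratios of *dlx1a* (1.13 in YM and 0.62 in DMSO) and *dlx2a* (1.03 in YM and 0.71 in DMSO) had overlapping intervals. So did that of *dlx4b*, at 1.48 to 2.93 in YM and 0.71 to 1.53 in DMSO. The difference of its 2 ratios was 1.07 (0.28 to 1.86), with an interval for counting error only. Lower in members were homeobox genes of Hox cofactors. *meis1a* stood at 18.6 CPM in YM members against 185 CPM in YM ventral arch 2 cells, and at 31.5 against 187 CPM in DMSO. For *meis2a* the log2 ratio was -1.70 in YM and -1.75 in DMSO, and for *meis1b* -1.38 and -1.47. The forkhead gene *foxf2a*, the nuclear receptor gene *nr2f2* and the cyclin gene *ccnd2a* were lower as well, with log2 ratios of -1.77, -1.12 and -0.90 in YM and of -1.37, -1.80 and -1.03 in DMSO. The plot of the contrast by library shows both groups away from the bulk of genes. Ranked highest by the smaller ratio of the 2 libraries was *s100a10b*, of the S100 calcium-binding family. It stood at 27.9 against 4.54 CPM in YM and 185 against 4.62 CPM in DMSO. Of its member UMIs, 216 of 224 in DMSO came from the member with epidermal markers, and 25 of 27 in YM from 1 member.

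**Figure D1:**
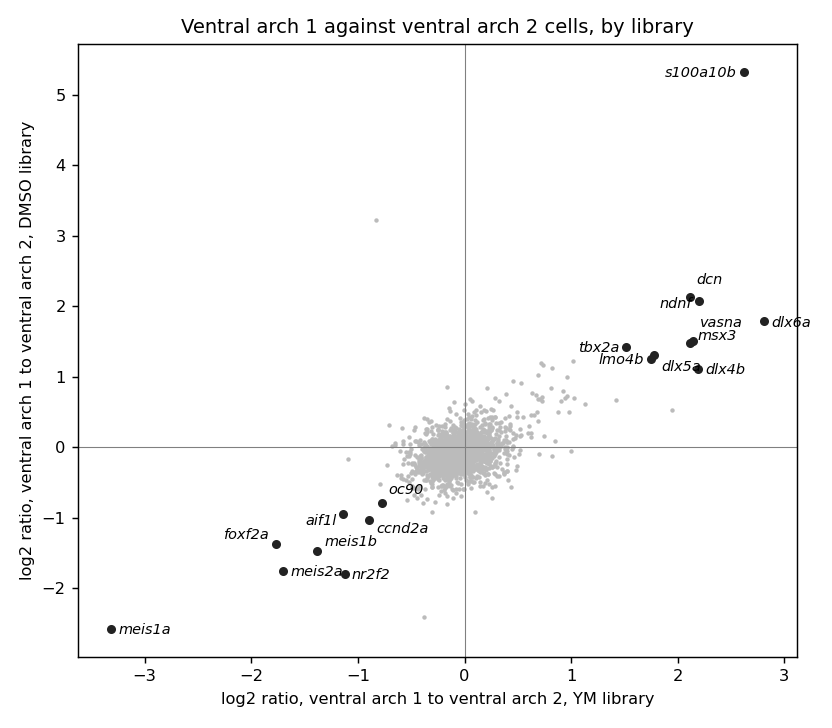
Each point is 1 gene at 50 CPM or more, with the log2 ratio of ventral arch 1 to ventral arch 2 cells in the YM library on the horizontal and in the DMSO library on the vertical axis. Genes used by the rule are left out, the labelled black points are genes among the 10 highest and 10 lowest, and *dcn* at 2.11 and 2.13 and *meis1a* at -3.31 and -2.57 lie at opposite ends.

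Against first arch cells without *hand2*, the members were higher in *cxcl12a*, *msx3* and *bambia* and lower in *emx2*, *jag1b* and both endothelin receptor genes. As *hand2* and *dlx2a* chose the classes, this too is a description. Of 1758 genes at 50 CPM or more, 40 were at least 1.5-fold higher in both libraries (2.28%) and 57 were at least 1.5-fold lower in both (3.24%). The chemokine gene *cxcl12a*, which guides migrating cells, stood at 209 CPM in YM members against 17.2 CPM in YM cells without *hand2*, and at 209 against 19.98 CPM in DMSO. *msx3* and *bambia*, both raised by BMP signaling in many tissues, followed, with log2 ratios of 3.30 and 3.03 in YM and of 3.09 and 3.04 in DMSO. The retinoic acid-binding protein gene *crabp2b*, the N-cadherin gene *cdh2* and the Mab21 family gene *mab21l1* were also higher, with log2 ratios of 2.06, 1.80 and 1.77 in YM and of 2.09, 2.11 and 1.90 in DMSO. Among the 10 lowest was *emx2*, an intermediate homeobox gene, which stood at 3.10 CPM in YM members against 136 CPM in YM cells without *hand2*, and at 2.48 against 178 CPM in DMSO. The Notch ligand gene *jag1b* stood at 9.30 against 124 CPM in YM and 7.45 against 82.0 CPM in DMSO. Both endothelin receptor genes were low in members. *ednraa* stood at 12.4 against 149 CPM in YM and at 11.6 against 118 CPM in DMSO, and *ednrab* stood at 9.30 against 139 CPM in YM and at 7.45 against 83.5 CPM in DMSO. The crest factor gene *tfap2a*, the BMP antagonist gene *grem2b* and the matrix gene *postnb* had log2 ratios of -4.14, -2.50 and -2.59 in YM and of -3.28, -2.45 and -2.38 in DMSO. A second chemokine gene, *cxcl12b*, was also among the 10 lowest, with -2.20 in YM and -2.66 in DMSO.

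Compared with all other kept cells of their library, the 15 highest genes were led by *dlx6a*, *dlx5a* and *barx1*, with log2 ratios of 3.60, 2.76 and 1.95 in YM and of 2.63, 2.10 and 1.93 in DMSO. *barx1* encodes a homeobox factor of skeletogenic arch mesenchyme. Among the lowest were haemoglobin genes and *lyz*, a lysozyme gene of leukocytes, the last at 7.23 CPM in YM members against 753 CPM in other YM cells and at 19.9 against 1555 CPM in DMSO.

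The comparison of YM with DMSO asks how these ventral cells differed under YM, an inhibition of Gq/11 that the study proposes is partial. Of 1787 genes at a mean of 50 CPM or more, 30 were at least 1.5-fold higher in YM members (1.68%) and 24 were at least 1.5-fold lower (1.34%). The median log2 ratio over the 5674 genes with 20 or more UMIs was 0.01. Without the 3 members that carried other cells' markers, 27 genes were higher and 19 lower by this measure. After every kept cell was thinned to 3500 UMIs and the rule applied anew, 69 were higher and 60 lower. This leaves fewer UMIs per gene and changes the members, to 132 YM and 173 DMSO cells.

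Among the 8 distal-less genes, which encode the homeobox factors that give arch cells their dorsoventral position, 7 reached 50 CPM. Of these, 2 were more than 1.5-fold lower in YM, *dlx4a* and *dlx4b*, against 1.34% of all genes at this level, and none was more than 1.5-fold higher. The study had named both as lowered by YM from these same libraries, so their values are not independent evidence. It also probed *dlx4b* by fluorescence *in situ* hybridization in treated embryos. *dlx4a* stood at 42.4 CPM (41 UMIs) in YM and 139 CPM (168 UMIs) in DMSO members, a log2 ratio of -1.71 (-2.24 to -1.21). The level of the paralog *dlx4b* was 62.0 CPM (60 UMIs) in YM and 114 CPM (138 UMIs) in DMSO members, a log2 ratio of -0.88 (-1.34 to -0.43). After every kept cell was thinned to 3500 UMIs and the rule applied anew, the ratio was -2.42 for *dlx4a* and -1.66 for *dlx4b*. As the members differ there, the part of depth in these 2 ratios was not tested. Both genes were lower in YM in level and in the share of cells. Among the members chosen before thinning, a UMI of *dlx4a* was found at 3500 UMIs in 8.15% of YM (11 of 135) and 25.5% of DMSO members (48 of 188). One of *dlx4b* was found in 18.5% of YM members (25 cells) and 31.4% of DMSO members (59 cells).

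Over all members, the levels of the other distal-less genes differed less between the libraries than those of *dlx4a* and *dlx4b*. *dlx3b*, the third intermediate domain Dlx gene, stood at 159 CPM in YM and 186 CPM in DMSO members, a log2 ratio of -0.23 (-0.53 to 0.08). *dlx5a* stood at 547 CPM in YM and 617 CPM in DMSO (-0.18, -0.34 to -0.01), and *dlx6a* at 262 CPM in YM and 330 CPM in DMSO (-0.33, -0.56 to -0.10). *dlx2a* differed by -0.02 and *dlx1a* by -0.22 on the log2 scale, both with intervals that hold 0. *dlx2b* had 4 UMIs in YM and 6 UMIs in DMSO. In the members chosen before thinning, shares were also taken at the thinned depth. A UMI of *dlx6a* was found there in 49.6% of YM and 63.3% of DMSO members, and one of *dlx3b* in 27.4% and 36.2%. For *dlx1a* the shares were 29.6% in YM and 30.9% in DMSO. Those of *dlx5a* (79.3% in YM and 76.1% in DMSO) and *dlx2a* (65.2% and 62.2%) went the other way. The list median was -0.23 over 7 genes. The plot of levels shows the gap at *dlx4a*, *dlx4b*, *barx1* and *cckb* and the overlapping intervals at *dlx1a*, *dlx2a* and *dlx3b*.

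**Figure D2:**
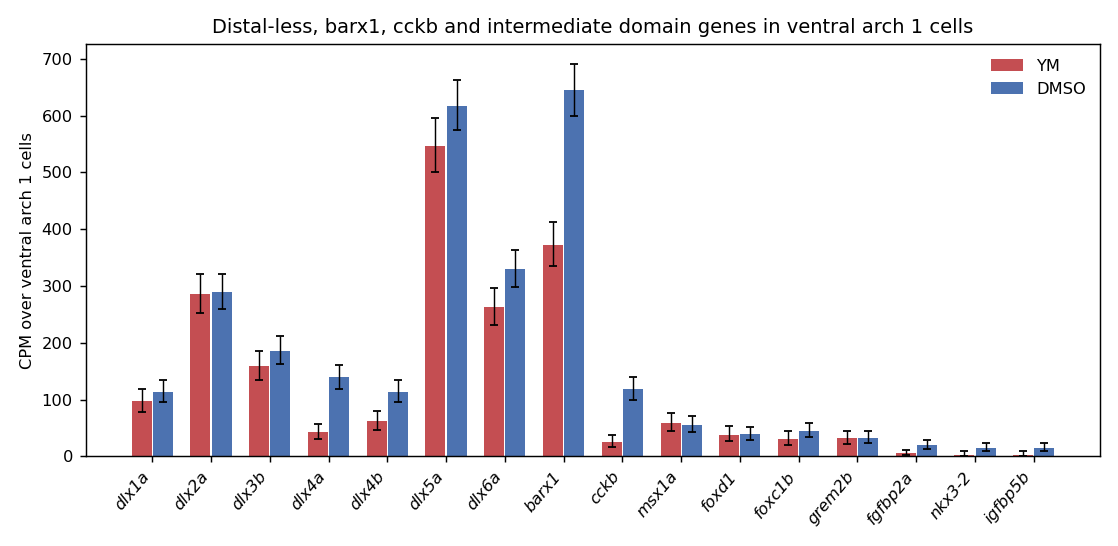
Bars are CPM over the ventral arch 1 cells of the YM (red) and DMSO (blue) library with exact 95% Poisson intervals. *dlx4a* is at 42.4 CPM in YM and 139 CPM in DMSO, *barx1* at 372 CPM in YM and 645 CPM in DMSO, and *dlx2a* at 285 CPM in YM and 290 CPM in DMSO.

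The 14 intermediate domain genes were taken from the study, which applied them to these libraries, so that they are not an independent choice. Of them 4 reached 50 CPM, and the 2 past 1.5-fold were again *dlx4a* and *dlx4b*. The median log2 ratio over 10 genes with 20 or more UMIs was -0.72, against 0.01 over all genes. After every kept cell was thinned to 3500 UMIs before the rule was applied, the median in members was -1.47. Without thinning, the list median was alike in the other classes, at -0.67 over 9 genes in ventral arch 2 and -0.72 over 13 genes in *hand2*-negative arch 1 cells. The rarer genes of the list were low in both libraries. *nkx3-2*, a jaw joint gene, and *igfbp5b*, a binding protein of insulin-like growth factors, each had 3 UMIs in YM and 18 UMIs in DMSO, a log2 ratio of -2.26 (-4.67 to -0.49). These ratios rest on few UMIs. For *igfbp5b* it was -1.91 without the 3 members that carried other cells' markers and -0.62 with 1 Hox2 UMI allowed, and for *nkx3-2* it was -1.08 with a *hand2* minimum of 3 UMIs. *fgfbp2a*, which binds fibroblast growth factors, had 5 UMIs in YM and 24 UMIs in DMSO (-1.94, -3.69 to -0.52). In contrast, *msx1a*, *foxd1* and *grem2b* had log2 ratios of 0.09, -0.03 and -0.05, with intervals no wider than -0.77 to 0.67. *shox* had 1 UMI in all.

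*barx1* was lower in YM as well, at 372 CPM (360 UMIs) in YM and 645 CPM (779 UMIs) in DMSO members, a log2 ratio of -0.79 (-0.98 to -0.61). It was the only 1 of 17 skeletal progenitor genes past 1.5-fold, of which 2 reached 50 CPM. At 3500 UMIs, 54.8% of YM and 69.1% of DMSO members held a UMI of it, against 1 of 49 YM and 3 of 60 DMSO leukocytes. The cartilage and bone genes *runx2a*, *runx2b*, *sp7*, *acana* and *matn1* were at 0 in both libraries. Other genes of the list were not silent. *sox5*, *sox6* and *sox9b* were detected, with 60, 37 and 36 UMIs in YM and 79, 61 and 56 UMIs in DMSO members. *cckb*, which encodes a cholecystokinin hormone precursor, stood at 25.8 CPM (25 UMIs) in YM and 118 CPM (143 UMIs) in DMSO members, a log2 ratio of -2.20 (-2.87 to -1.58), and at -2.16 without the member of each library with most UMIs of it.

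Dorsal arch genes gave no common direction. Of the 12 genes on the list 3 reached 50 CPM, none was past 1.5-fold, and the median log2 ratio over 8 genes was -0.10. *nr2f5*, a nuclear receptor gene of the dorsal arch, stood at 61.0 CPM in YM and 62.1 CPM in DMSO members, a log2 ratio of -0.03 (-0.54 to 0.49). That ratio minus the ratio in *hand2*-negative arch 1 cells was -0.55 (-1.08 to -0.02), and minus that in ventral arch 2 cells -0.36 (-0.97 to 0.25), for counting error only. The study listed *nr2f5* among genes raised by YM in its arch clusters, of which the ventral one holds arches 1 and 2. *nr2f1a* had 5 UMIs in YM and 26 UMIs in DMSO (-2.06, -3.80 to -0.65). *eya1*, a transcriptional coactivator gene, had a log2 ratio of 0.49 (-0.05 to 1.03), and *jag1b* had 9 UMIs in each library.

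The same ratio was taken in ventral arch 2 and *hand2*-negative arch 1 cells of the same libraries. There 11 of 1819 genes (0.605%) and 10 of 1721 genes (0.581%) were at least 1.5-fold higher in YM, and 17 (0.935%) and 15 (0.872%) were at least 1.5-fold lower. Both classes held more UMIs than the members, with 1761822 in YM and 1515900 in DMSO ventral arch 2 cells. *hand2*-negative arch 1 cells held 2907666 in YM and 1951918 in DMSO. Counting error is thus larger in members, and its part in their higher shares of such genes was not tested. *dlx4a* differed by a like amount in the 3 classes, with log2 ratios of -1.71 in members, -1.69 in ventral arch 2 cells and -1.66 in *hand2*-negative arch 1 cells. *barx1* was also close, at -0.79, -0.79 and -0.67. *dlx3b*, *dlx5a* and *dlx6a* were further from DMSO in both other classes. *dlx3b* had log2 ratios of -0.23 in members, -1.63 in ventral arch 2 cells and -0.72 in *hand2*-negative arch 1 cells. *dlx6a* had log2 ratios of -0.33, -1.35 and -0.95 in the same order, *dlx5a* -0.18, -0.64 and -0.80, and *dlx4b* -0.88, -1.95 and -1.20. The list median was -0.23 in members, -1.35 in ventral arch 2 cells and -0.80 in *hand2*-negative arch 1 cells, over 7 genes each. The log2 ratio of members minus that of ventral arch 2 cells was 1.41 (0.92 to 1.90) for *dlx3b*, 1.02 (0.54 to 1.498) for *dlx6a*, 1.07 (0.28 to 1.86) for *dlx4b* and 0.46 (0.19 to 0.74) for *dlx5a*, with intervals for counting error only. It was 0.52 (-0.05 to 1.08) for *dlx1a* and 0.32 (-0.01 to 0.66) for *dlx2a*, which hold 0. Against *hand2*-negative arch 1 cells it was 0.50 (0.08 to 0.91) for *dlx3b*, 0.62 (0.17 to 1.08) for *dlx6a*, 0.62 (0.35 to 0.89) for *dlx5a* and 0.32 (-0.32 to 0.96) for *dlx4b*. With 1 library per condition these differences could not be tested across replicates. Those against ventral arch 2 cells are the same quantity as the larger arch ratios in YM given above, and not a second observation. Ventral arch 2 cells were deeper than members, with medians of 7800 UMIs in YM and 6790 UMIs in DMSO, and *hand2*-negative arch 1 cells were chosen on *dlx2a*. Cells with other cells' markers were left in both classes. In *hand2*-negative arch 1 cells the median log2 ratio of YM to DMSO was -6.10 over 6 epidermal and -5.43 over 3 leukocyte markers. The part of depth, of that choice and of such cells in the differences was not tested.

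**Figure D3:**
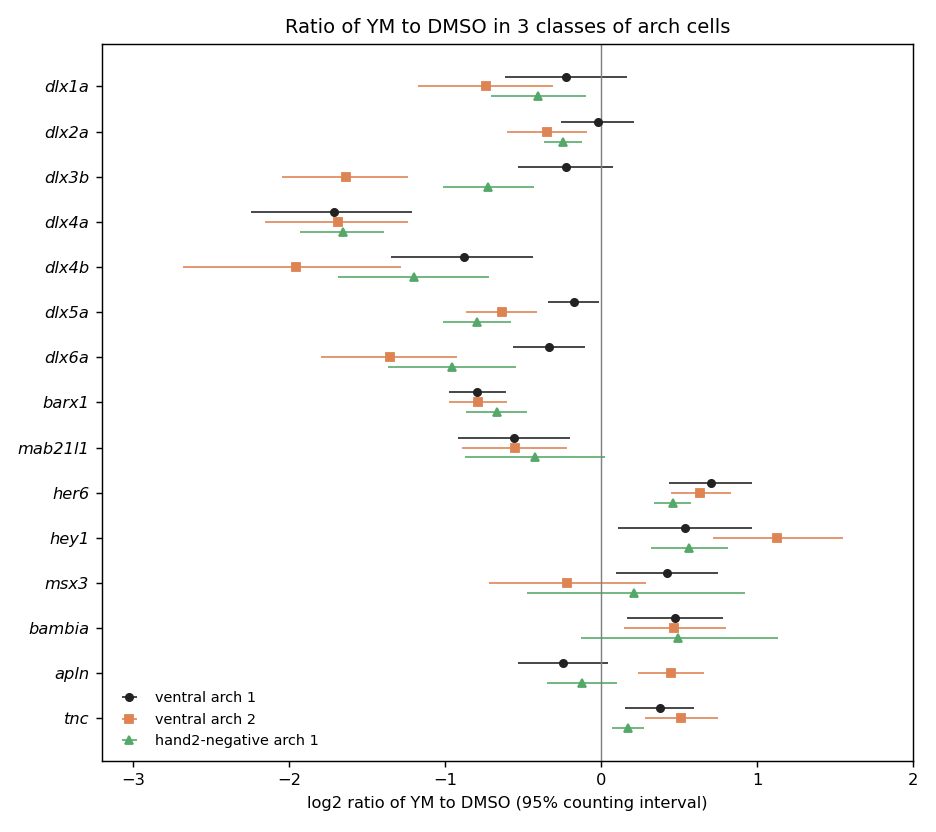
Points are log2 ratios of YM to DMSO with 95% counting intervals in ventral arch 1 (circles), ventral arch 2 (squares) and *hand2*-negative arch 1 cells (triangles), with genes down the page. *dlx4a* and *barx1* lie together in the 3 classes, whereas *dlx3b* is at -0.23 in ventral arch 1 and -1.63 in ventral arch 2 cells.

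Per cell, the 3 intermediate genes *dlx3b*, *dlx4a* and *dlx4b* together were found in 40.0% of YM members (54 of 135, 31.7% to 48.8%) and 53.7% of DMSO members (101 of 188, 46.3% to 61.0%) at 3500 UMIs. In ventral arch 2 cells the shares were 12.7% of YM (27 of 212) and 32.5% of DMSO cells (69 of 212), and in *hand2*-negative arch 1 cells 23.1% of YM (93 of 403) and 31.1% of DMSO cells (95 of 305). The median member held 4 UMIs of the 7 distal-less genes in YM and 6 UMIs in DMSO.

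The members were not uniform, and *hand2* itself ordered part of the variation. Members thinned to 3500 UMIs were split into those with 0 to 1, 2 to 3, and 4 or more remaining UMIs of *hand2*, with 44, 58 and 33 YM cells and 59, 70 and 59 DMSO cells. As *hand2* chose the members, the split is a description. *dlx3b*, *dlx4a*, *dlx4b*, *cckb* and *barx1* were higher where *hand2* was lower. Across the 3 classes from low to high *hand2*, *dlx4a* stood at 71.4, 29.6 and 0 CPM in YM and at 242, 114 and 43.6 CPM in DMSO members. *cckb* stood at 26.0, 19.7 and 0 CPM in YM and at 232, 98.0 and 33.9 CPM in DMSO. *barx1* stood at 500, 379 and 251 CPM in YM and at 804, 633 and 475 CPM in DMSO, and *dlx3b* at 169, 133 and 60.6 CPM in YM and at 266, 155 and 121 CPM in DMSO. *dlx4b* stood at 90.9, 54.2 and 17.3 CPM in YM and at 150.1, 114 and 63.0 CPM in DMSO. *dlx2a* differed little between the classes, at 286, 320 and 260 CPM in YM and at 286, 290 and 262 CPM in DMSO. The mesenchyme gene *prrx1b* ran the other way, at 273, 335 and 381 CPM in YM and at 140, 216 and 339 CPM in DMSO. *cxcl12a* stood at 130, 246 and 225 CPM in YM and at 160, 151 and 363 CPM in DMSO.

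*dlx4a* and *barx1* were lower in YM at each level of *hand2*. The log2 ratio of *barx1* was -0.69 (-1.09 to -0.29), -0.74 (-1.15 to -0.33) and -0.92 (-1.57 to -0.31) from low to high *hand2*. That of *dlx4a* was -1.76 (-2.85 to -0.80) in the lowest and -1.95 (-3.51 to -0.65) in the middle class. In the highest class *dlx4a* had 0 UMIs in YM and 9 UMIs in DMSO, with an upper end of the interval of -0.14. *cckb* had ratios of -3.16 (-5.09 to -1.71) and -2.31 (-4.30 to -0.77) in the lowest and middle classes, and 0 UMIs in YM and 7 UMIs in DMSO in the highest, where the upper end of the interval was 0.31 and no difference was detectable at this depth. The ratio of *dlx6a* was -0.74 (-1.33 to -0.17), -0.41 (-1.04 to 0.20) and -0.16 (-0.78 to 0.43). *prrx1b* had ratios of 0.96 (0.24 to 1.69), 0.63 (0.09 to 1.18) and 0.17 (-0.41 to 0.73). Those of *cxcl12a* had no common direction, at -0.30 (-1.18 to 0.54), 0.71 (0.06 to 1.36) and -0.69 (-1.39 to -0.03).

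**Figure D4:**
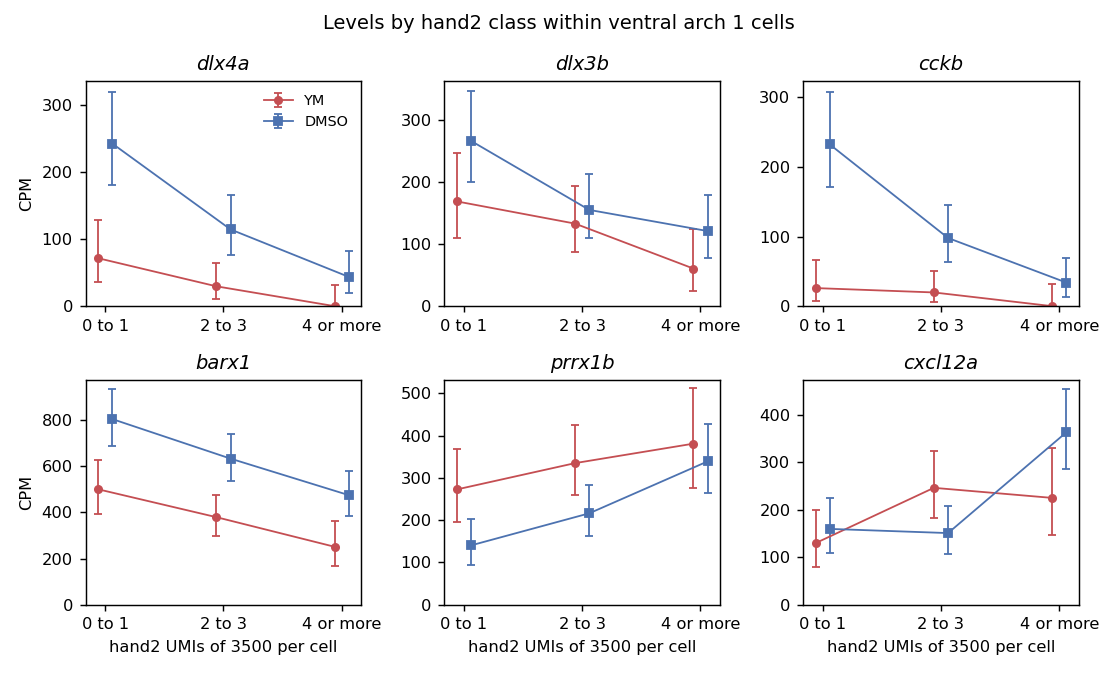
Lines join the CPM of 6 genes in ventral arch 1 cells with 0 to 1, 2 to 3 and 4 or more *hand2* UMIs of 3500, in YM (red circles) and DMSO (blue squares), with 95% Poisson intervals. *dlx4a*, *dlx3b*, *cckb* and *barx1* are highest at low *hand2* and drawn lower in YM in each class. Intervals overlap for *dlx3b* and, in the highest class, for *dlx4a* and *cckb*. *prrx1b* is highest at high *hand2*.

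The Notch target gene *her6* was higher in YM members. Of 15 Notch pathway genes 5 reached 50 CPM and 1, *her6*, was past 1.5-fold higher, against 1.68% of all genes tested, with no gene past 1.5-fold lower. The median log2 ratio over 7 genes was 0.34, and 0.17 without the 3 members that carried other cells' markers. The single-gene intervals had median ends of -0.18 and 0.87, on both sides of 0, and no interval was computed for the list median itself. *her6*, a Hes family repressor, stood at 280 CPM (271 UMIs) in YM and 172 CPM (208 UMIs) in DMSO members, a log2 ratio of 0.70 (0.44 to 0.97). The target gene *hey1* stood at 104 CPM in YM and 72.01 CPM in DMSO (0.54, 0.11 to 0.97), and *her9* at 26.9 CPM in YM and 12.4 CPM in DMSO (1.11, 0.14 to 2.14). The receptor genes *notch2* and *notch3* had log2 ratios of 0.12 and 0.09, with intervals that hold 0. The study named *her6*, *her9*, *hey1* and *nr2f5* from these same libraries, so their values are not independent evidence of a direction. In ventral arch 2 cells the ratios of *her6*, *hey1* and *her9* were 0.64, 1.13 and 1.68.

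Among 28 genes of BMP signaling, which patterns the ventral arch, 9 reached 50 CPM, none was past 1.5-fold, and the median over 18 genes was 0.19. The feedback gene *bambia* stood at 193 CPM in YM and 139 CPM in DMSO members (0.47, 0.17 to 0.78), *msx3* at 169 CPM in YM and 127 CPM in DMSO (0.42, 0.09 to 0.75), and the target gene *id2a* at 174 CPM in YM and 121 CPM in DMSO (0.52, 0.19 to 0.85). Against these, *id1* differed by -0.09 (-0.17 to -0.01). The antagonist gene *nog1* had 28 UMIs in YM and 6 UMIs in DMSO, a log2 ratio of 2.54 (1.24 to 4.10), and was found in 11 of 135 YM and 2 of 188 DMSO members at 3500 UMIs. The related *nog2* differed by 0.36 (-0.14 to 0.86), and *nog3* had 3 UMIs in YM and 1 UMI in DMSO.

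In the other pathways of the arch no gene at 50 CPM was past 1.5-fold. The Wnt, forkhead and endothelin lists held no gene at that level, so none of their genes could be called. Of 19 Fgf genes 5 reached this level, with a median of 0.06 over 13 genes, *spry4*, a feedback inhibitor, at 0.52 (0.03 to 1.00) and *il17rd*, another, at 1.18 (0.25 to 2.16) on 29 UMIs in YM and 16 UMIs in DMSO. Of 13 Hedgehog genes 3 reached it, with a median of -0.07 over 9 genes. Of 16 Wnt genes, 9 forkhead genes and 11 endothelin pathway genes none did, with medians of 0.22 over 3 genes, -0.03 over 5 genes and 0.50 over 2 genes. The ligand gene *edn1* had 1 UMI in YM and 0 UMIs in DMSO, *ednraa* 12 UMIs in YM and 14 UMIs in DMSO, and *mef2ca*, an effector of endothelin signaling, 24 UMIs in YM and 16 UMIs in DMSO (0.90, -0.07 to 1.92). The 5 genes of Gq/11 subunits summed to 19.6 CPM in YM and 23.2 CPM in DMSO members, a level at which a change could not be read.

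General mesenchyme genes differed little. Of 12 genes 10 were in the files and 9 reached 50 CPM, none past 1.5-fold, with a median of 0.09. *twist1a* stood at 363 CPM in YM and 299.6 CPM in DMSO members (0.28, 0.06 to 0.49), and *prrx1b* at 349 CPM in YM and 261 CPM in DMSO (0.42, 0.20 to 0.65). *mab21l1* was lower, at 106 CPM in YM and 156 CPM in DMSO (-0.56, -0.92 to -0.20). Of 20 matrix genes 10 reached 50 CPM, none past 1.5-fold, with a median of -0.03 over 14 genes. *tnc*, encoding tenascin C, stood at 363 CPM in YM and 280 CPM in DMSO (0.37, 0.15 to 0.59), and *sparc* at 107 CPM in YM and 148 CPM in DMSO (-0.46, -0.83 to -0.11). Without the 3 members that carried other cells' markers *sparc* differed by -0.25 (-0.63 to 0.12), an interval that holds 0. The fibronectin gene *fn1b* had 0 UMIs in YM and 39 UMIs in DMSO, all 39 in the member with epidermal markers. Among 8 chemokine genes *cxcl12a* was level at 209 CPM in both libraries over all members, though not within the *hand2* classes above. Its receptor gene *cxcr4a* had 42 UMIs in YM and 20 UMIs in DMSO, a log2 ratio of 1.39 (0.59 to 2.24). It was found in 16.3% of YM and 5.32% of DMSO members at 3500 UMIs, with 0 of 49 YM and 2 of 60 DMSO leukocytes. Of 12 vessel-directed and growth factor genes *cckb* alone was past 1.5-fold, and *mdka*, encoding midkine, stood at 384 CPM in YM and 477 CPM in DMSO (-0.31, -0.50 to -0.12). Of the DMSO UMIs of *mdka* 60 came from 1 member, and without the 3 members its ratio was -0.15 (-0.35 to 0.04). Of 20 immediate early genes 5 reached 50 CPM, none past 1.5-fold, with a median of 0.26 over 12 genes. Of 10 adhesion genes 4 reached 50 CPM and 1, *cdh11*, was past 1.5-fold higher, with a median of -0.15 over 7 genes.

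Of the mitosis genes none of the 14 at 50 CPM was past 1.5-fold. The median log2 ratio over 17 of them was -0.32. Their single-gene intervals had median ends of -0.72 and 0.09, which are no interval for the list median. The kinase gene *plk1* stood at 152 CPM in YM and 219 CPM in DMSO (-0.53, -0.83 to -0.23), the spindle genes *tpx2* and *nusap1* had log2 ratios of -0.46 (-0.75 to -0.19) and -0.43 (-0.71 to -0.15), and *mki67* differed by -0.05 (-0.21 to 0.11). The same list had a median of -0.31 in ventral arch 2 and of 0.06 in *hand2*-negative arch 1 cells. DNA replication genes had a median of 0.03 over 18 genes. Ribosome biogenesis genes had a median of 0.18 over 20 genes, with *npm1a* at 1191 CPM in YM and 893 CPM in DMSO (0.42, 0.29 to 0.54), proteasome genes a median of 0.02 over 32 genes, and chaperone genes a median of 0.19 over 7 genes. Deeper cells in YM, with medians of 6765 UMIs against 5833 UMIs in DMSO, went with these values, and the part of depth in them was not tested.

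Outside the lists, the highest and lowest 12 genes by ratio at 50 CPM or more included several outside the arch patterning lists. *atp6v0e1*, a subunit of the vacuolar proton pump, stood at 660 CPM (639 UMIs) in YM and 339 CPM (410 UMIs) in DMSO members, a log2 ratio of 0.96 (0.78 to 1.14), and was higher also in ventral arch 2 (0.79) and *hand2*-negative arch 1 cells (1.05). *efnb2a*, an ephrin ligand gene, stood at 196 CPM in YM and 119 CPM in DMSO (0.72, 0.40 to 1.04). *odc1*, the first enzyme of polyamine synthesis, stood at 121 CPM in YM and 67.9 CPM in DMSO (0.83, 0.41 to 1.26), and *cdh11*, a mesenchymal cadherin gene, at 64.1 CPM in YM and 37.2 CPM in DMSO (0.78, 0.21 to 1.37). *cbfb*, encoding the partner of Runx factors, *coa6*, *slc20a2*, *ppp1cb* and *thap12a* had log2 ratios between 0.70 and 0.86, and *si:dkey-68o6.5* had 1.201 (0.61 to 1.81). After every kept cell was thinned to 3500 UMIs before the rule was applied, *thap12a* differed by 0.10 and *cdh11* by 0.21. There *coa6* differed by 0.35 and *si:dkey-68o6.5* by 0.57, and all were under 1.5-fold. With 1 Hox2 UMI allowed *slc20a2* differed by 0.55 and *ppp1cb* by 0.54, also under it. Among the lowest, the kinetochore gene *spc24* (-1.02), the kinesin gene *kifc1* (-0.86) and the spindle gene *hmmr* (-0.78) are genes of cell division, and *kifc1* was at -0.39 after the same thinning. *selenow2a*, *gstp1* and *polr2i* stood at -0.94, -0.97 and -0.80, *selenow2a* was at -0.58 after it, and *gstp1* turned to 0.54 with a *hand2* minimum of 1 UMI.

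The remaining extremes of that ranking rested on single cells. All 155 UMIs of *icn* in YM came from the member with endothelial markers. Of the DMSO UMIs, 211 of 253 of *pfn1*, an actin-binding protein gene, and 216 of 224 of *s100a10b* came from the member with epidermal markers. Without the 3 members the log2 ratio of *pfn1* was -0.17 in place of -2.76 and that of *s100a10b* -1.68 in place of -2.73, the last on 2 UMIs in YM and 8 UMIs in DMSO. The plot of ratio against level marks these 3 genes with open circles and shows *dlx4a* and *cckb* below, and *atp6v0e1* above, the spread of genes of like level.

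**Figure D5:**
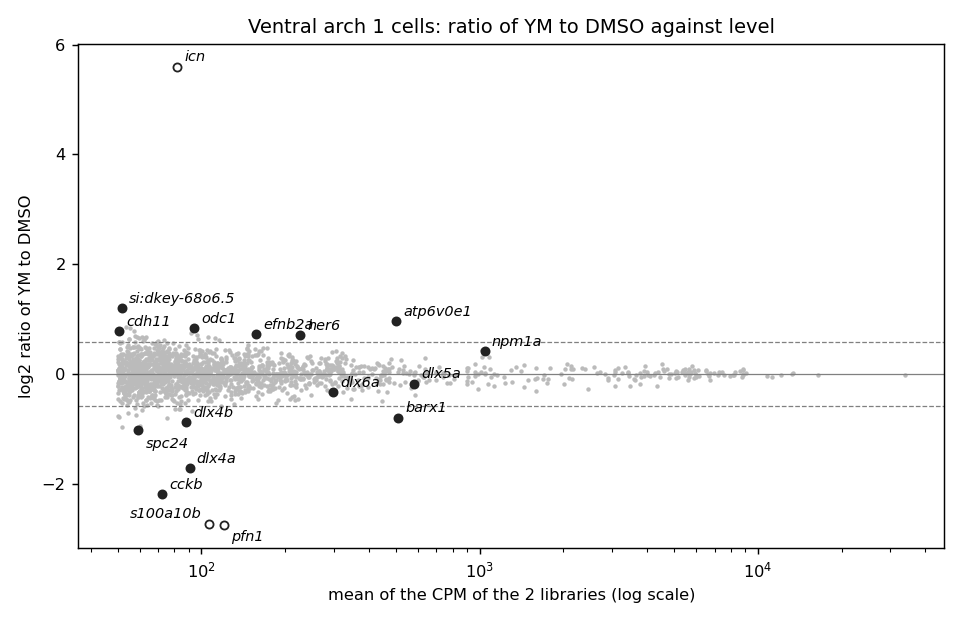
Each point is 1 gene at a mean of 50 CPM or more in ventral arch 1 cells, with the mean of its YM and DMSO CPM (log scale) on the horizontal and the log2 ratio of YM to DMSO on the vertical axis. Dashed lines mark 1.5-fold, open circles mark genes carried by 1 cell, and *dlx4a* is at -1.71, *cckb* at -2.20 and *atp6v0e1* at 0.96.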

How the data were processed

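Single cells of pooled embryonic heads were profiled in 2 droplet libraries, YM and DMSO, each 1 sample. The deposited files hold raw UMI counts per gene and barcode, which the authors made with Cell Ranger (5.0.1 in the submitters' processing notes, 4 in the file header) against GRCz11, with no filter on barcodes (6794880 barcodes, 25434 features). Features with the same symbol were summed, which gave 24737 symbols. The upper gene limits and the mitochondrial limit are those of the study, the minimum of 1800 UMIs is not and stands in for its lower gene limit, and doublets were not removed. Total counts were 33649382 UMIs in the YM and 25340682 UMIs in the DMSO file, of which kept cells held 30362029 and 22094925.

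Counts were summed over cells per library and class with numpy 2.4.6 in Python 3.11.15, checked on simulated data. A gene was called past 1.5-fold at a mean of 50 CPM or more, and list medians used genes with 20 or more UMIs over both libraries. Named genes were those of 34 fixed lists, the 12 highest and 12 lowest ratios of YM to DMSO, and the 10 highest and 10 lowest (15 against all other cells) in each class contrast. Lists and members were chosen with earlier results of these data known. Genes with near-identical copies can share reads, and 1 UMI can be free RNA. Alternatives were other *hand2*, Hox, UMI, gene and mitochondrial limits, thinning, TMM scaling in edgeR 4.0.16, other count minimums, and, chosen after seeing the data, a 2-fold limit and the removal of members with other cells' markers or of the top member per gene. As an alternative, thinning came before the rule, so that it also changed which cells were members. Coordinates and sequences were not used here.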

Additional observations from a re-analysis of the deposited data

Results flagged for a closer look

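In 2 genes the log2 ratio of YM to DMSO lay on opposite sides of 0 in ventral arch 1 and in *hand2*-negative arch 1 cells, with counting intervals that do not hold 0. *igfbp5b* had a log2 ratio of -2.26 in ventral arch 1 cells, on 3 UMIs in YM and 18 UMIs in DMSO, and of 0.25 in *hand2*-negative arch 1 cells. Without the 3 members that carried other cells' markers its ratio was -1.91, and with 1 Hox2 UMI allowed it was -0.62. Of its DMSO UMIs 6 came from 1 member. *krt8*, an epidermal keratin gene, had a log2 ratio of -0.29 in ventral arch 1 and of 0.26 in *hand2*-negative arch 1 cells. Without those members its ratio was -0.26 (-0.55 to 0.03), an interval that holds 0. With 1 library per condition, neither difference was tested.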

How the results depend on the processing

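A share or single gene was said to stay when its alternative value lay inside the reported counting interval. A count stayed when within 1.5-fold, and a list median when between the median ends of its genes' intervals. Of the shares, counts and list medians recomputed under the alternatives, 125 stayed by these rules and 15 moved. For single genes each value under 1 alternative was counted, with up to 14 alternatives per gene. Only genes whose counting interval did not hold 0 entered. Of these values 648 stayed, 16 moved and 5 changed direction. Wide intervals make staying easy. *igfbp5b* stayed in all 14 alternatives while its ratio ran from -3.07 to -0.62. The share of ventral arch 1 cells was 4.18% in YM and 7.31% in DMSO with a *hand2* minimum of 1 UMI, 2.63% and 4.08% with 3 UMIs, and 4.02% and 7.03% with 1 Hox2 UMI allowed. Counts of genes more than 1.5-fold higher and lower in YM were 69 and 60 after thinning every kept cell to 3500 UMIs, 147 and 76 of 3501 genes with 20 UMIs in each library, and 1669 and 1945 of 10431 genes with 1 UMI in each. At 2-fold, a limit chosen after seeing the data, they were 2 and 7. The median of intermediate domain genes was -1.47 after thinning. The log2 ratio of *dlx4a* lay between -2.42 and -1.47 throughout. Changes of direction were 0.54 for *gstp1* with a *hand2* minimum of 1 UMI, 2.09 for *s100a10b* with 3 UMIs, and 4.09 for *s100a10b*, 0.39 for *col11a1a* and 1.22 for *pfn1* after thinning. The cause was not tested. No paired analysis was possible because each condition has 1 library. Depth limits genes under about 20 UMIs, where intervals span several-fold.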

Other observations

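Some other genes differed between the libraries in ventral arch 1 cells, or in their ratio between the classes. *egr1*, an immediate early gene, had 16 UMIs in YM and 5 UMIs in DMSO members, a log2 ratio of 2.00 (0.48 to 3.80), whereas *fosab* stood at 233 CPM in YM and 180 CPM in DMSO (0.37). The proteasome gene *psmc2* was the only 1 of 29 proteasome genes at 50 CPM past 1.5-fold, at 43.4 CPM in YM and 72.8 CPM in DMSO (-0.75). *apln*, which encodes the vessel ligand apelin, had a log2 ratio of -0.24 (-0.53 to 0.05) in ventral arch 1 and of 0.45 in ventral arch 2 cells. The ratio of ventral arch 1 minus that of ventral arch 2 cells was -0.69 (-1.04 to -0.34) for *apln* and -0.93 (-1.40 to -0.45) for the matrix gene *postnb*, with intervals for counting error only. Across replicates these differences could not be tested.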
